A study of Sus scrofa with 8 samples.

Results

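Interferon response genes were described in synovial mesenchymal stem cells (SMSCs) of pigs of 2 breeds. They were the 39 genes of a list of classical interferon-induced genes, with genes of antigen processing left out, and every probe set whose symbol in the platform annotation matched a listed gene was taken. This gave 67 probe sets for 34 of the 39 genes, among 47722 probe sets tested, of which 26426 carried a symbol. No probe set carried the symbols IRF7, HERC5, IFI27, SAMD9 or IFI44L, and these genes were not analysed here.

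Interferons are secreted proteins that warn neighbouring cells of a virus. Type I interferons bind the receptor chains IFNAR1 and IFNAR2, kinases of the JAK family then activate STAT2, which acts with IRF9 in a factor that switches on a shared set of genes. Cells make many of the products at a low level without infection, among them sensors of viral RNA such as RIG-I, which can start a new round of interferon production. Fibroblast-like cells of the synovium can both make and answer type I interferon.

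SMSCs are fibroblast-like progenitor cells cultured from the tissue that lines a joint. They came from stifle joints of piglets aged 59 days, 3 of the breed Angeln Saddleback (AS) and 3 of the German Landrace (DL), and were grown from 2 kinds of synovium: adipose synovium at the infrapatellar fat pad (FP) and fibrous synovium at the lateral capsule of the joint (FS). The groups AS-FP, AS-FS, DL-FP and DL-FS each had 2 Affymetrix Porcine Snowball arrays, numbered 1 and 2, made with RNA of undifferentiated cell pools at passage 3. Neither the labels nor the methods name a treatment with interferon or virus in any group, and they leave unstated whether arrays of 1 group stand for separate animals or cultures. The spread that the p-values rest on may therefore be technical. FP and FS cells of a breed came from the same 3 piglets, so its 4 arrays do not stand for 4 independent animals. Breed cannot be told apart from these donors. An SD over the 4 arrays of a breed or of a tissue mixes 2 groups.

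Each probe set combines short probes for 1 transcript or a few similar ones, and the values are log2 signals after robust multichip averaging (RMA), so that a difference of 1 is a doubling. The array medians were 4.58 to 4.64, the medians of 69 background probe sets were 2.66 to 2.81, and Pearson's r between arrays, taken over probe sets that are no independent replicates, was 0.982 to 0.99. Arrays with the same number deviated together, and results were therefore computed with and without the replicate number as a block. A probe set was called at an adjusted p of 0.1 or less (limma, Benjamini-Hochberg over all 47722 probe sets).

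Most of the genes gave a signal above background in these unstimulated cells. The mean exceeded the highest background median in all 4 groups for 58 of the 67 probe sets. It did so in some groups for 2 and in none for 7. Such signals were common on the array: the filter on dim probe sets kept 60 of the 67 and 37624 of all 47722. A signal above background therefore does not by itself set these genes apart from other genes. Taking the brightest probe set of a gene, 33 of 34 genes were above background in every group. The exception was PARP9, a partner of the ubiquitin ligase DTX3L, whose only probe set read 2.13 to 2.83 in AS and 2.22 to 2.59 in DL. The antiviral GTPase MX1 read 8.61 to 8.87 in AS and 8.59 to 9.05 in DL, and IRF9, the DNA-binding subunit of the interferon-activated factor, read 8.75 to 9.08 in AS and 8.86 to 9.09 in DL. Signals of different probe sets cannot be ranked as amounts of RNA.

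Between the breeds, a few genes of the list separated and most did not. IFIT3 was lower and OAS1 was higher in AS, and these were the 2 probe sets called (2.99% of 67), while 0.666% of all probe sets were called (0.231% higher and 0.436% lower in AS). With the replicate block 14 of the 67 (20.9%) were called, while 3.04% of all probe sets were called. Of these, 9 were lower in AS, for IFIT1, IFIT2, IFIT3, IFIT5, RSAD2 and DDX58, where 1.81% of all probe sets were lower. The other 5 were higher in AS, for OAS1, OAS2 and IRF1, where 1.23% of all were higher. Over the brightest probe sets the median difference of AS minus DL was -0.149 for the 34 genes, with 29 below and 5 above 0, and -0.00327 for the 13566 named genes. This median moved to -0.0667 without the first AS-FS array and to -0.224 without the second. For 18 of the 34 genes the difference was smaller than 0.25 in size. The cells were measured in bulk, so fewer cells of a kind and less RNA per cell cannot be told apart.

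The 4 AS arrays lay on one side of the 4 DL arrays for 9 of the 67 probe sets (13.4%), against 5.2% of all probe sets. Of these 6 were lower in AS, for IFIT1, IFIT3, IFIT5, ISG15, GBP2 and RSAD2, and 3 were higher, for OAS1, OAS2 and IRF1, while among all probe sets 2.86% were lower and 2.34% higher. By role, the median breed difference of the brightest probe sets was -0.506 for the 4 IFIT genes, -0.282 for the 4 GTPases, -0.263 for the 3 genes of the ISG15 system and -0.252 for the 4 genes of ADP-ribosylation and ubiquitin transfer. It was -0.16 for the 4 genes of the IFI series with XAF1, -0.103 for the 4 other antiviral effectors, -0.102 for the 7 sensors and -0.0316 for the 3 transcription factors.

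**Figure D1:**
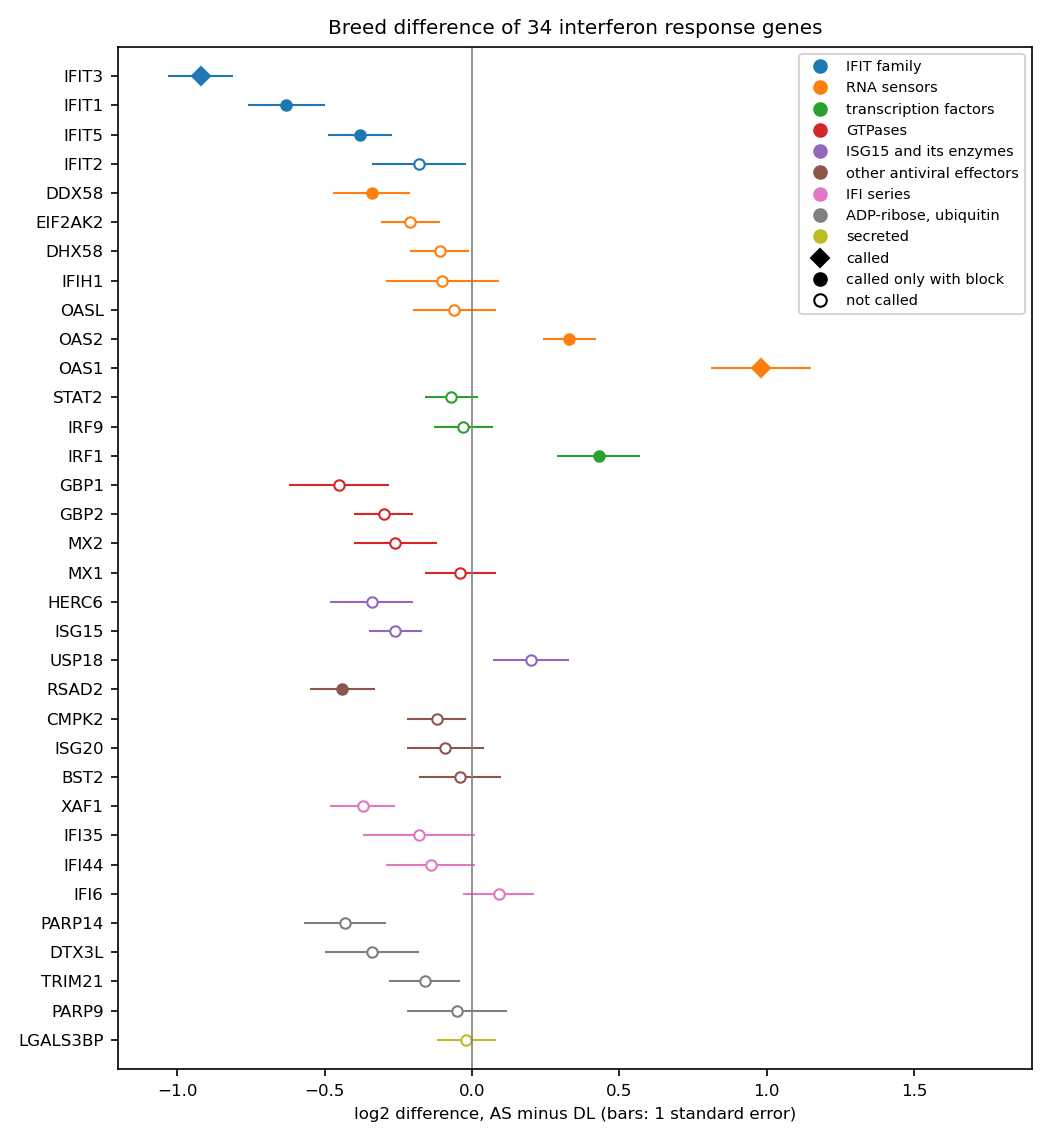
Difference of AS minus DL in log2 RMA signal for the brightest probe set of each of the 34 genes, grouped by role. Points are estimates and bars are 1 standard error of the fit without the block; diamonds were called without the block, filled circles only with it and open circles in neither. IFIT3 lies at -0.92 and OAS1 at 0.98, and 29 of the 34 genes lie below 0.

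The IFIT proteins bind foreign RNA and hinder its translation, and IFIT1 recognises RNA whose cap lacks a methyl group that the cell's own messages carry. IFIT3, which binds and steadies IFIT1 in human cells, was lower in AS. Its probe set SNOWBALL_024611_st read 4.16 and 4.28 in AS-FP, 4.55 and 4.40 in AS-FS, 5.04 and 4.93 in DL-FP, and 5.55 and 5.55 in DL-FS. All 4 AS arrays lay below all 4 DL arrays. The mean was 4.35 ± 0.17 in AS and 5.27 ± 0.33 in DL (SD, n = 4 arrays each). The log2 difference was -0.92 (standard error 0.11, 95% interval -1.18 to -0.66, limma adjusted p = 0.0193, 0.0103 with the block), which is a 1.89-fold lower signal in AS. The difference was -0.90 among the arrays numbered 2 and -0.94 among those numbered 1. With each array left out in turn the difference was -0.96 to -0.88. The call was lost with the ordinary linear model named in the methods (adjusted p = 0.141). That model called none of all probe sets for breed here, while the paper ran its model on fewer, filtered probe sets.

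The other IFIT3 probe set, SNOWBALL_017006_s_st, which may match several transcripts, gave the same direction with a wider spread. It read 4.05 and 3.19 in AS-FP, 4.91 and 3.35 in AS-FS, 4.73 and 4.96 in DL-FP, and 5.52 and 5.87 in DL-FS. The first AS-FS array lay within the range of DL and the other AS arrays lay below it. The difference was -1.39 (standard error 0.34, adjusted p = 0.205, 0.075 with the block), and it was -2.14 among the arrays numbered 2 and -0.64 among those numbered 1. With only the probe sets of an SD above 0.25 tested, it was called without the block (limma adjusted p = 0.0302).

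IFIT1 had a pair of probe sets. SNOWBALL_017365_s_st read 6.24 and 5.75 in AS-FP, 6.18 and 6.43 in AS-FS, 6.25 and 6.46 in DL-FP, and 7.26 and 7.17 in DL-FS. The AS arrays overlapped those of DL-FP, while both DL-FS arrays stood above the other 6. The second, SNOWBALL_024610_st, read 5.68 and 5.84 in AS-FP, 6.02 and 6.07 in AS-FS, 6.19 and 6.31 in DL-FP, and 6.41 and 6.78 in DL-FS, with no overlap between the breeds. The breed difference was -0.63 for the first (standard error 0.13, adjusted p = 0.144, 0.0643 with the block) and -0.52 for the second (standard error 0.11, adjusted p = 0.166, 0.0414 with the block). Both were called only with the block.

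IFIT5, which binds RNA with an uncapped end, had 5 probe sets that did not all move alike. SNOWBALL_024608_st read 7.64 and 7.64 in AS-FP, 7.85 and 7.71 in AS-FS, 8.01 and 7.92 in DL-FP, and 8.27 and 8.23 in DL-FS, so all AS arrays were below all DL arrays. Its difference was -0.40 (standard error 0.08, adjusted p = 0.121, 0.029 with the block). The brightest, SNOWBALL_017481_s_st, read 8.44 and 8.37 in AS-FP, 8.86 and 8.40 in AS-FS, 8.81 and 8.75 in DL-FP, and 9.08 and 8.95 in DL-FS. Here the first AS-FS array lay inside the range of DL, and the difference was -0.38 (standard error 0.11, adjusted p = 0.321, 0.0707 with the block). A further 2 of its probe sets differed by -0.26 and 0.18, neither called, and the remaining one read 1.77 to 2.31 on the 8 arrays, below background.

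IFIT2, which binds RNA rich in A and U and in human cells also promotes cell death, was close to background. SNOWBALL_017310_s_st read 3.61 and 2.22 in AS-FP, 2.91 and 2.61 in AS-FS, 3.86 and 3.51 in DL-FP, and 4.05 and 3.82 in DL-FS. A pair of the AS arrays lay below the highest background median, and with values under an array's background median raised to that median the difference was -0.82. As measured it was -0.97 (standard error 0.28, adjusted p = 0.322, 0.0764 with the block). Single arrays moved it, to -0.63 without the second AS-FP array and to -1.32 without the first (adjusted p = 0.0695). The other probe set, SNOWBALL_024612_st, differed by -0.18 (standard error 0.16, adjusted p = 0.838, 0.732 with the block), so the 2 probe sets of this gene differed in size and in call.

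**Figure D2:**
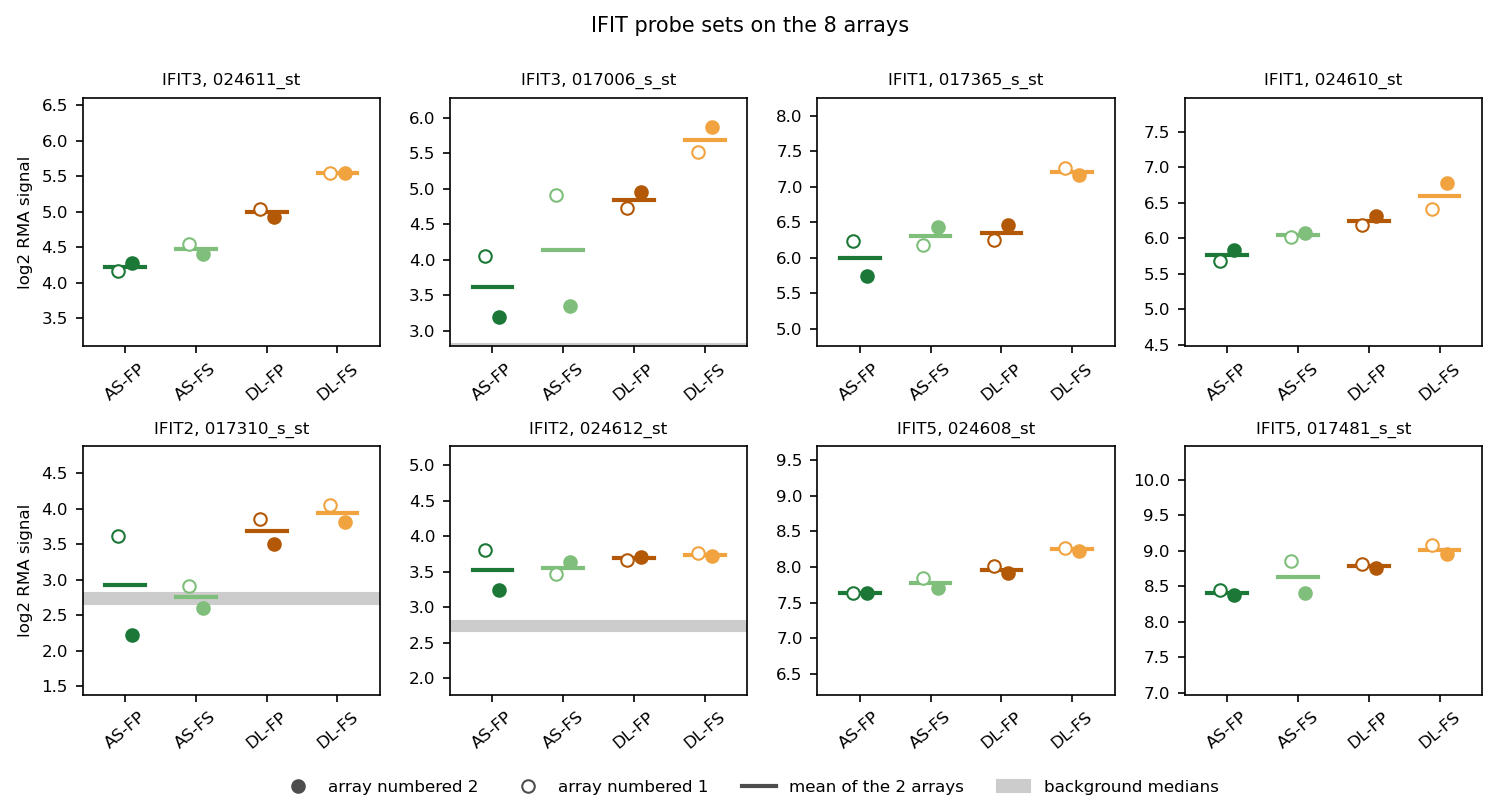
Log2 RMA signal of 8 IFIT probe sets on each of the 8 arrays, by group, with the mean of the 2 arrays as a line; filled points are arrays numbered 2, open points arrays numbered 1, and the grey band spans the background medians of 2.66 to 2.81. Each panel spans the same number of log2 units, and for IFIT3 SNOWBALL_024611_st the AS points lie at 4.16 to 4.55 and the DL points at 4.93 to 5.55.

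OAS enzymes are switched on by double-stranded RNA and make short chains of adenylate that activate RNase L, which cuts RNA. OAS1 and OAS2 were called as higher in AS with the block. OAS1 SNOWBALL_024354_s_st, which may match several transcripts, read 5.27 and 5.70 in AS-FP, 5.90 and 5.56 in AS-FS, 4.48 and 3.97 in DL-FP, and 4.98 and 5.08 in DL-FS. The lowest AS array was above the highest DL array. The mean was 5.61 ± 0.27 in AS and 4.63 ± 0.51 in DL (SD, n = 4 arrays each). The log2 difference was 0.98 (standard error 0.17, 95% interval 0.60 to 1.36, limma adjusted p = 0.0689, 0.034 with the block), or a 1.97-fold higher signal in AS. It was 1.11 among the arrays numbered 2 and 0.85 among those numbered 1.

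With each array left out in turn the OAS1 difference stayed at 0.85 to 1.11. The call was lost in most of these fits, each of which left a group with a single array. It was also lost with the ordinary linear model (adjusted p = 0.408), which called none of all probe sets for breed. The other 2 OAS1 probe sets differed in the same direction by less, and neither fit called them: SNOWBALL_016581_st by 0.19 (standard error 0.16) and SNOWBALL_036751_st by 0.35 (standard error 0.19).

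All 3 OAS2 probe sets were higher in AS, and all were called with the block and none without it. SNOWBALL_024355_st read 8.79 and 8.66 in AS-FP, 8.97 and 8.78 in AS-FS, 8.23 and 8.14 in DL-FP, and 8.58 and 8.49 in DL-FS. The AS arrays were all above the DL arrays, with a difference of 0.44 (standard error 0.08, adjusted p = 0.107, 0.0144 with the block). SNOWBALL_016793_st read 9.20 and 9.43 in AS-FP, 9.42 and 9.65 in AS-FS, 8.68 and 8.83 in DL-FP, and 8.68 and 9.37 in DL-FS. Only the second DL-FS array reached the AS range, and the difference was 0.54 (standard error 0.15, adjusted p = 0.301, 0.037 with the block). SNOWBALL_016769_s_st read 9.63 and 9.70 in AS-FP, 9.80 and 9.95 in AS-FS, 9.26 and 9.34 in DL-FP, and 9.47 and 9.70 in DL-FS, a difference of 0.33 (standard error 0.09, adjusted p = 0.248, 0.0351 with the block), and here too the second DL-FS array lay in the AS range. OASL, a relative without the enzyme activity in humans, had 3 probe sets with differences of -0.06 to 0.12, none called.

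The remaining sensors stood mostly slightly lower in AS. DDX58 encodes RIG-I, the helicase that detects viral RNA with a triphosphate end. Its brightest probe set, SNOWBALL_022476_s_st, read 8.51 and 8.90 in AS-FP, 8.64 and 8.99 in AS-FS, 8.85 and 9.00 in DL-FP, and 9.11 and 9.43 in DL-FS. The breeds overlapped, and in each group the array numbered 2 was the higher. The breed difference was -0.34 (standard error 0.13, adjusted p = 0.502), and with the block the adjusted p was 0.049. The other 2 DDX58 probe sets differed by -0.17 and -0.22 and were not called. IFIH1, which encodes MDA5, a sensor of long double-stranded RNA, differed by -0.10 and -0.14. DHX58, which encodes the regulator LGP2, differed by -0.11 and -0.19. EIF2AK2, which encodes the kinase PKR that stops translation, differed by -0.21 at its brightest probe set. None of these 3 genes was called.

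Among the transcription factors, IRF1, which drives many genes of the interferon-gamma response, stood higher in AS. SNOWBALL_000653_st read 6.58 and 6.60 in AS-FP, 7.08 and 6.61 in AS-FS, 6.41 and 6.08 in DL-FP, and 6.47 and 6.17 in DL-FS. The breeds did not overlap, by a gap smaller than the distance between the 2 arrays of either DL group. The difference was 0.43 (standard error 0.14, adjusted p = 0.39, 0.0912 with the block), and 0.31 without the first AS-FS array. IRF9 and STAT2, which work together, differed by -0.03 and by -0.07 at their brightest probe sets and were not called, and the second STAT2 probe set differed by -0.25.

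RSAD2, also called viperin, makes a modified nucleotide that stops viral RNA synthesis. SNOWBALL_004961_st read 5.53 and 5.57 in AS-FP, 5.70 and 5.63 in AS-FS, 5.88 and 5.81 in DL-FP, and 6.40 and 6.10 in DL-FS. The AS arrays lay close together below all DL arrays, and the difference was -0.44 (standard error 0.11, adjusted p = 0.219, 0.082 with the block). The other RSAD2 probe set lay below background, at 1.29 to 1.48 in AS and 1.23 to 2.09 in DL. CMPK2, the neighbour of RSAD2 that supplies the nucleotide it modifies, differed by -0.12 (standard error 0.10) and was not called.

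**Figure D3:**
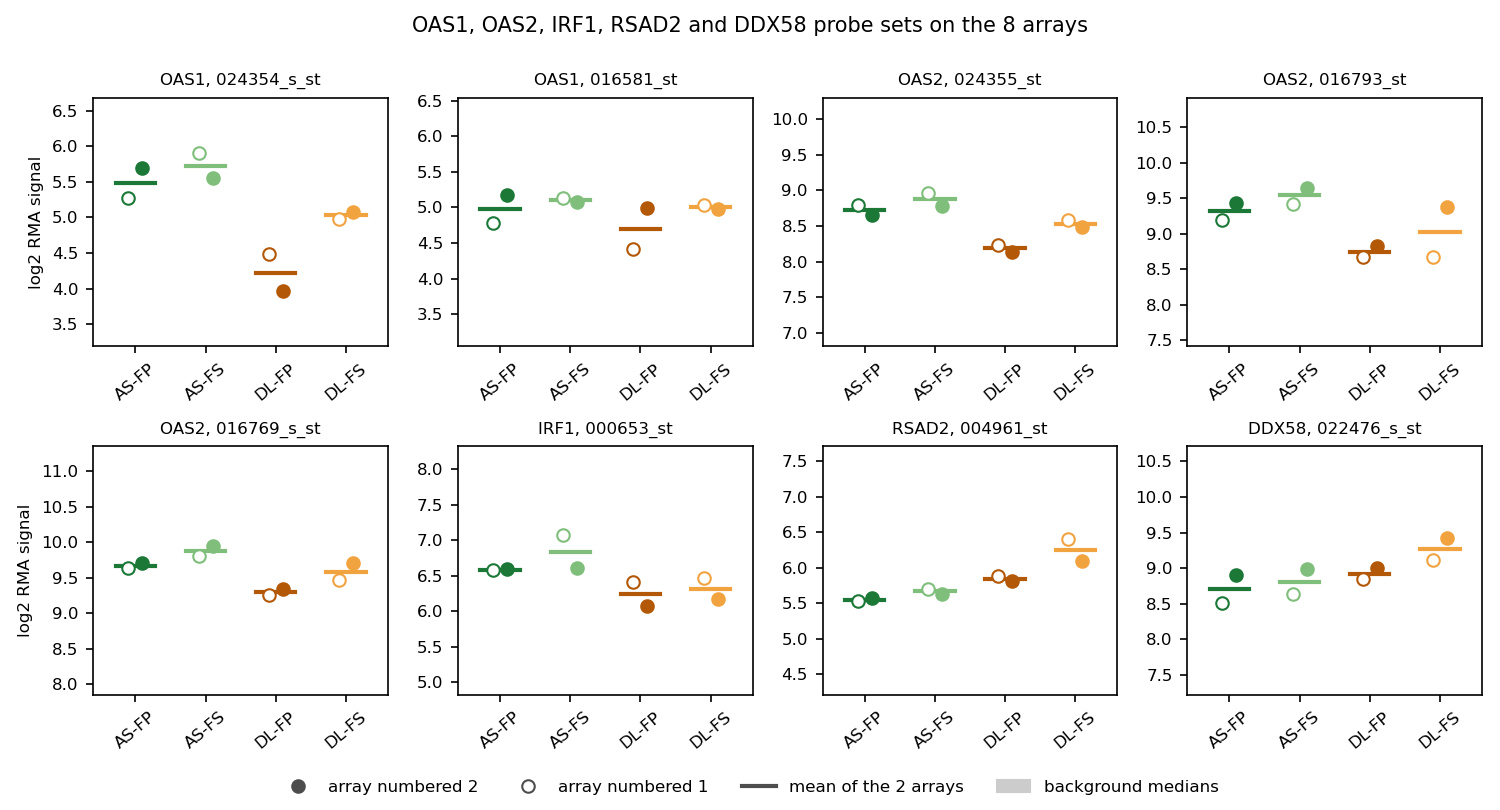
Log2 RMA signal on each of the 8 arrays for the OAS1 probe sets SNOWBALL_024354_s_st and SNOWBALL_016581_st, the 3 OAS2 probe sets, IRF1, RSAD2 and the brightest DDX58 probe set, by group, with the mean of the 2 arrays as a line; filled points are arrays numbered 2, open points arrays numbered 1. Each panel spans the same number of log2 units, and for OAS1 SNOWBALL_024354_s_st the AS points lie at 5.27 to 5.90 and the DL points at 3.97 to 5.08.

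The other genes were called in neither fit. The brightest probe sets of the 4 dynamin-like and guanylate-binding GTPases differed by -0.45 to -0.04: GBP1, which coats bacteria and vacuoles, read 6.49 and 6.36 in AS-FP, 5.86 and 5.64 in AS-FS, 7.08 and 6.31 in DL-FP, and 6.37 and 6.38 in DL-FS. Its difference of -0.45 (standard error 0.17, adjusted p = 0.479, 0.174 with the block) came with overlapping breeds, and the first DL-FP array stood above all others. The ubiquitin-like protein ISG15 differed by -0.24 to -0.32 over its 3 probe sets, and USP18, which removes ISG15 from proteins, by 0.20. HERC6, a ligase that joins ISG15 to proteins in the mouse, read 7.89 and 8.05 in AS-FP, 7.93 and 8.0 in AS-FS, 7.96 and 8.33 in DL-FP, and 8.19 and 8.77 in DL-FS, a difference of -0.34 (standard error 0.14, adjusted p = 0.552, 0.143 with the block).

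The 3 IFI genes and XAF1, which favours cell death, differed by -0.37 to 0.09 at their brightest probe sets, with XAF1 at the low end and IFI6, a mitochondrial and endoplasmic reticulum protein, at the high end. The 4 genes of ADP-ribosylation and ubiquitin transfer differed by -0.43 to -0.05, with the ADP-ribosyltransferase PARP14 the lowest and PARP9 at background. BST2, which tethers budding virus to the cell surface, differed by -0.04 to 0.31 over 4 probe sets, the nuclease ISG20 by -0.09, and the secreted glycoprotein LGALS3BP by -0.02 and 0.01.

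Some of the genes shared an order of the group means. For 18 of the 67 probe sets (26.9%), from 11 genes, the means increased in the order AS-FP, AS-FS, DL-FP and DL-FS, while 5.5% of all probe sets had this order, which was picked after the values of IFIT3, itself counted here, were seen. They included 7 IFIT probe sets, RSAD2, 2 of DDX58 and 2 of ISG15. For IFIT3 SNOWBALL_024611_st the group means were 4.22 in AS-FP, 4.47 in AS-FS, 4.99 in DL-FP and 5.55 in DL-FS, and no 2 neighbouring groups overlapped. The same held for IFIT1 SNOWBALL_024610_st, IFIT5 SNOWBALL_024608_st and RSAD2 SNOWBALL_004961_st. So 4 of the 67 probe sets (5.97%) had all 4 groups apart in this order, against 0.136% of all. This share too counts IFIT3, from whose values the order was picked, so neither share is a test of the order. RSAD2 averaged 5.55 in AS-FP, 5.67 in AS-FS, 5.84 in DL-FP and 6.25 in DL-FS. For IFIT1 SNOWBALL_017365_s_st the AS-FP, AS-FS and DL-FP arrays overlapped, and only DL-FS stood clear of the group before it.

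In the RefSeq gene order of the pig assembly Sscrofa11.1, IFIT2, IFIT3, IFIT1 and IFIT5 lie next to each other, and OAS2 lies next to OAS1. The breed difference of the 6 named genes on either side was looked at for comparison. Of the 12 genes that flank the IFIT genes none was called, and 1 was called with the block: LIPA, the lysosomal lipase beside IFIT2, at -0.52 (standard error 0.14, adjusted p = 0.272, 0.085 with the block). The 12 differences ranged from -0.52 to 0.24. The 12 genes that flank OAS1 and OAS2 ranged from -0.41 to 0.30 and were called in neither fit.

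**Figure D4:**
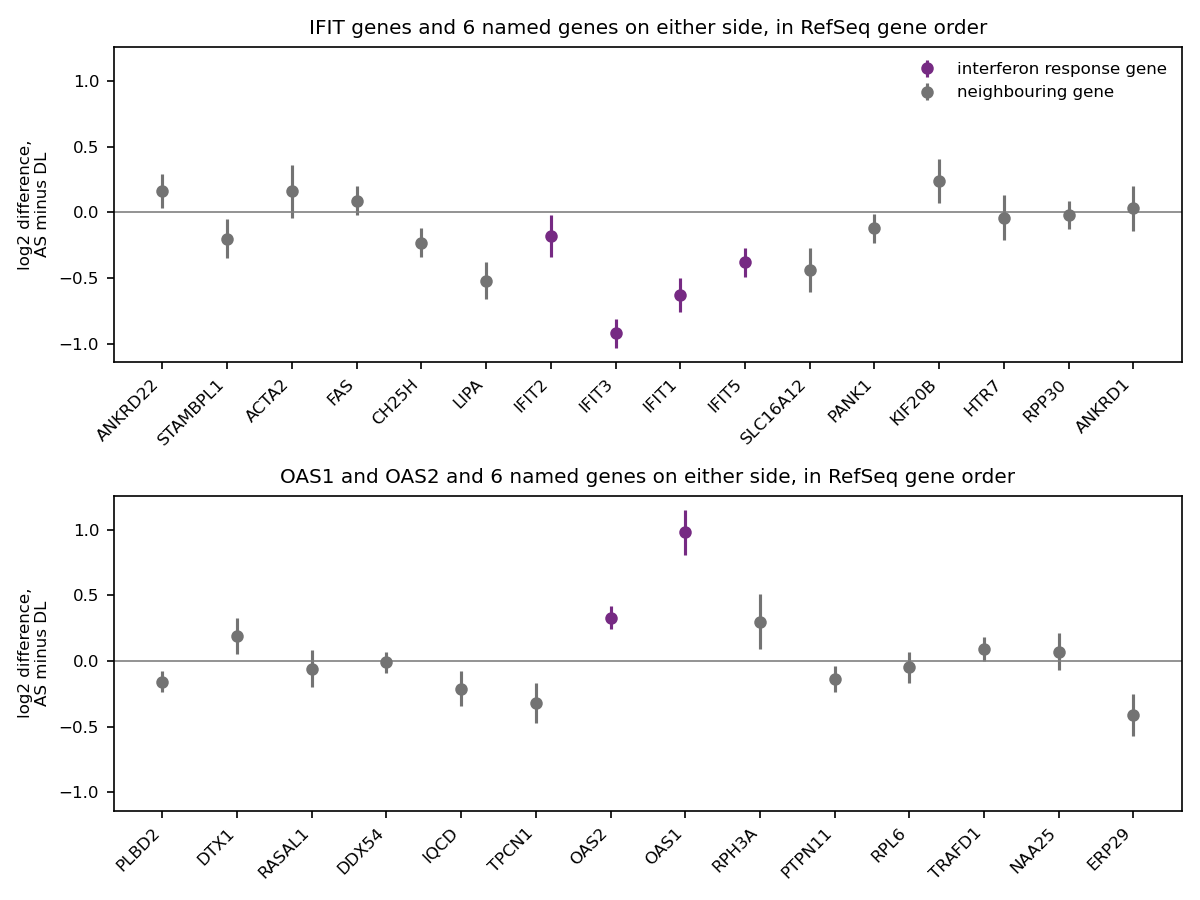
Difference of AS minus DL in log2 RMA signal of the brightest probe set of the IFIT genes (top) and of OAS1 and OAS2 (bottom) with 6 named genes on either side, in gene order. Bars are 1 standard error; the flanking genes lie between -0.52 and 0.24 at the IFIT genes and between -0.41 and 0.30 at the OAS genes.

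The breed comparison was repeated inside each tissue. None of the 67 probe sets was called in FP or in FS without the block, where 0.212% of all probe sets were called in FP and 0.0943% in FS. At an unadjusted p under 0.05 (limma) there were 11 of the 67 in FP and 24 in FS. All probe sets were not counted at that cutoff, so no excess can be read from any count at it, here or below. With the block, 2 were called in FP, where 0.826% of all were called, and 3 in FS, where 1.07% of all were called. In FP these were OAS1 SNOWBALL_024354_s_st, at 5.48 ± 0.31 in AS-FP and 4.22 ± 0.37 in DL-FP (SD, n = 2 arrays each; difference 1.26, limma adjusted p = 0.0922 with the block), and OAS2 SNOWBALL_024355_st, with a difference of 0.54 (adjusted p = 0.0466 with the block). In FS they were IFIT3 SNOWBALL_024611_st with a difference of -1.08 (adjusted p = 0.0434 with the block), IFIT5 SNOWBALL_024608_st with -0.47 (adjusted p = 0.087) and DDX58 SNOWBALL_022476_s_st with -0.46 (adjusted p = 0.0907). The DDX58 difference in FS was -0.29 without the first AS-FS array and -0.30 without the second DL-FS array. Whether breed differences differed between FP and FS was tested by the interaction, in which none of the 67 and none of all probe sets was called in either fit (limma, 4 of the 67 at an unadjusted p under 0.05). The interaction was -0.21 to 0.83 for IFIT3 and -0.20 to 1.32 for OAS1 (95% intervals of the tissue difference in AS minus that in DL).

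Between the tissues, none of the 67 probe sets was called with or without the block, while 0.264% of all probe sets were called without it and 0.987% with it. The lowest adjusted p (limma) was 0.261 without the block and 0.15 with it. An unadjusted p under 0.05 (limma) was seen for 10 of the 67, a cutoff at which all probe sets were not counted. None of the 67 had its 4 FP arrays on one side of the 4 FS arrays, against 2.79% of all. Over the brightest probe sets the median of FP minus FS was -0.0554 and the difference was smaller than 0.25 in size for 29 of the 34 genes. This median was -0.0158 without the second AS-FS array, and -0.0921, -0.126 and -0.102 without the second DL-FP, the second AS-FP and the first AS-FS array.

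Among the brightest probe sets, the widest tissue differences were in genes already described. IFIT1 SNOWBALL_017365_s_st averaged 6.17 ± 0.30 in FP and 6.76 ± 0.53 in FS (SD, n = 4 arrays each), a difference of -0.58 (95% interval -0.89 to -0.28, adjusted p = 0.261, 0.15 with the block). OAS1 SNOWBALL_024354_s_st averaged 4.85 ± 0.78 in FP and 5.38 ± 0.43 in FS, a difference of -0.53 (95% interval -0.91 to -0.14). GBP1 was the gene with the widest difference in the other direction, at 6.56 ± 0.36 in FP and 6.06 ± 0.37 in FS, a difference of 0.50 (95% interval 0.12 to 0.88, adjusted p = 0.706, 0.252 with the block), which was 0.33 among the arrays numbered 2 and 0.67 among those numbered 1. IFIT3 SNOWBALL_024611_st differed by -0.41 and RSAD2 by -0.26. These intervals leave out 0 for single probe sets but were not adjusted for the number tested. Inside each breed none of the 67 was called for FP minus FS in either fit. Of all probe sets, 0.044% were called in DL and 0.0545% in AS without the block. An unadjusted p under 0.05 (limma) was seen for 9 of the 67 in DL and 3 in AS. All probe sets were not counted at that cutoff, so no excess can be read from these counts.

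Few probe sets of these genes were called by the number of the array, and so few calls do not set them apart from all probe sets. In the comparison of arrays numbered 2 with those numbered 1, with the 4 group means in the model, 2 of the 67 probe sets (2.99%) were called and both were higher in the arrays numbered 2, while 5.52% of all probe sets were called, 1.95% as higher. IFIH1 SNOWBALL_017846_s_st read 4.66, 4.95, 4.81 and 5.05 in the arrays numbered 2 of AS-FP, AS-FS, DL-FP and DL-FS, and 4.34, 3.84, 4.30 and 4.19 in those numbered 1. Every array numbered 2 was above every array numbered 1, with a difference of 0.70 (standard error 0.16, adjusted p = 0.0629). The other IFIH1 probe set, SNOWBALL_017816_st, read 6.60, 6.50, 6.55 and 6.48 in the arrays numbered 2 and 5.90, 6.10, 6.02 and 6.46 in those numbered 1, again with no overlap, and was not called (difference 0.41, adjusted p = 0.122).

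The brightest DDX58 probe set was higher by 0.30 in the arrays numbered 2 (standard error 0.06, adjusted p = 0.0545). Both calls were lost with the ordinary linear model, which called none of all probe sets for the number. They were also lost in most fits with an array left out. In those fits the difference was 0.273 to 0.354 for DDX58 and 0.563 to 0.825 for IFIH1. The arrays numbered 2 were all above those numbered 1 for 5 of the 67 probe sets (7.46%), from IFIH1, MX1, PARP14 and STAT2, against 4.04% of all probe sets, and 8.57% did not overlap in either direction. HERC6 differed by 0.30 and IFI44, a cytoplasmic protein induced by interferon, by 0.28, and neither was called. IFI44 read 7.39, 7.39, 7.57 and 7.72 in the arrays numbered 2 of AS-FP, AS-FS, DL-FP and DL-FS, and 7.48, 6.97, 7.23 and 7.26 in those numbered 1. A probe set with the symbol ISG12(A), which is outside the rule and is a name also used for the human gene IFI27, differed by -0.12 between the breeds (adjusted p = 0.938) and by 0.49 between the numbers (adjusted p = 0.0707). What the replicate number stands for is not given in the sources used here.

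**Figure D5:**
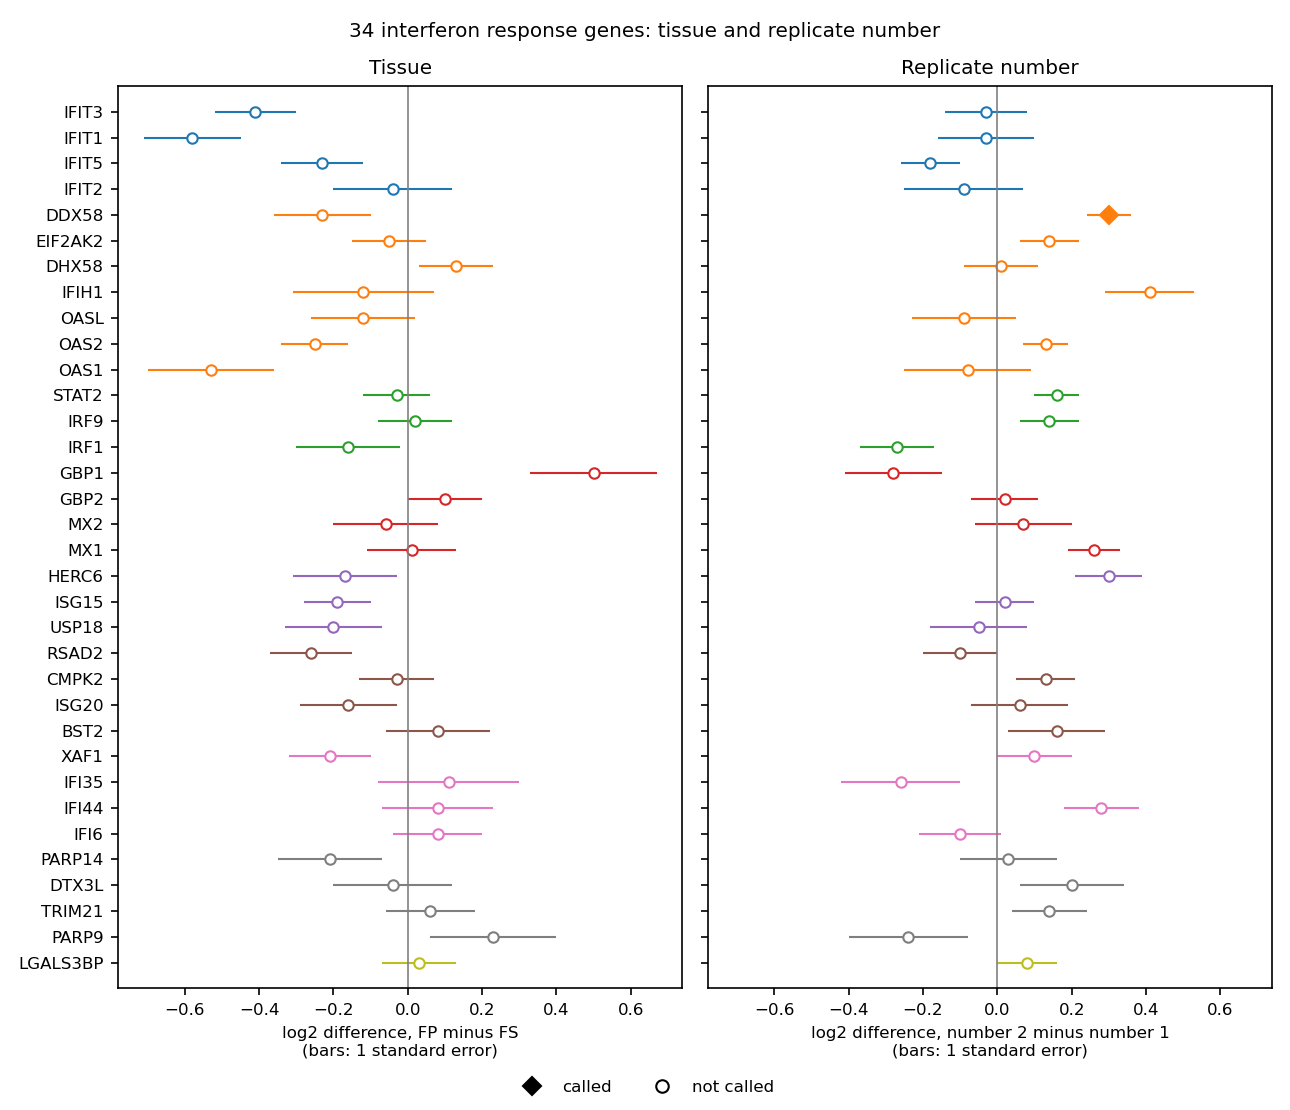
Difference of FP minus FS (left) and of arrays numbered 2 minus arrays numbered 1 (right) in log2 RMA signal for the brightest probe set of each of the 34 genes, in the same order and colours by role as for the breeds. Bars are 1 standard error, without the block on the left and with the group means and the number in the model on the right; no gene was called on the left, and DDX58, at 0.30, is the called gene on the right.

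Signals, receptors and signalling genes upstream of these genes were listed as well. Of 13 listed interferons and receptor chains, 8 had a probe set. IFNG, IFNE and IFNK, and the receptor chain IFNGR2, were at or near background, between 1.88 and 2.95 on single arrays. IFNAR1, IFNAR2, IFNGR1 and IL10RB, the shared chain of the interferon-lambda receptor, were above it, and of these only IL10RB was called for breed, and only with the block, at -0.40 (adjusted p = 0.254, 0.0779 with the block). The 16 signalling and induction genes with a probe set, of 18 listed, had 39 probe sets, of which none was called for breed or tissue in either fit. Their median breed difference was -0.0151, and their brightest probe sets ranged from -0.21 to 0.16.

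A further 27 interferon-induced genes were listed outside the 39, and 16 of them had probe sets. Their median breed difference was -0.125, with 14 of 16 below 0. SAMHD1, an enzyme that depletes nucleotides needed by viruses, was lower in AS: SNOWBALL_019400_st read 9.63 and 9.56 in AS-FP, 9.95 and 9.83 in AS-FS, 9.91 and 10.03 in DL-FP, and 10.44 and 10.65 in DL-FS. The breeds overlapped at AS-FS and DL-FP, and the difference was -0.52 (adjusted p = 0.0566, 0.0141 with the block). With the block its FP minus FS difference of -0.44 was also called (adjusted p = 0.039), as was its second probe set in both comparisons (adjusted p = 0.0292 for breed and 0.0732 for tissue). The death ligand TNFSF10 at -1.0 (adjusted p = 0.146, 0.019 with the block) and the receptor chaperone RTP4 at -0.37 (adjusted p = 0.329, 0.0817 with the block) were called for breed with the block. The TNFSF10 difference was -1.62 in FS and -0.39 in FP. Its other probe sets differed by 0.03 and -0.44 and were called for breed in neither fit. The chemokines CXCL9, CXCL10 and CXCL11, which interferon-gamma induces strongly, were at or below 2.34 on all 8 arrays, under every background median.

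Markers of other cells that could carry interferon signals were compared with those of the cell type on the label. The 7 of 8 listed mesenchymal stem cell markers with a probe set were above background in every group, with an average brightest signal per array of 9.80 to 9.97 in AS and the same range in DL. NT5E was close to background, at 2.74 to 3.22 on single arrays. ENG at -0.27 (adjusted p = 0.0745 with the block) and CD44 at 0.29 and 0.50 (adjusted p = 0.0617 and 0.0188 with the block) were called for breed with the block. Of the macrophage markers 7 of 9 had a probe set, with averages of 4.16 to 4.36 in AS and 4.07 to 4.26 in DL, and PTPRC and LYZ were at background on all arrays. All 7 markers of lymphocytes and plasmacytoid dendritic cells averaged 5.11 to 5.32 in AS and 5.02 to 5.15 in DL, and all 6 endothelial markers 4.52 to 4.74 in AS and 4.67 to 4.87 in DL. Of these markers, 5 of macrophages, 6 of lymphocytes and dendritic cells and all 6 endothelial ones were above background in every group. A signal above background therefore did not set the lists apart. None of the probe sets of these 3 lists was called for breed or tissue in either fit, and their part in the results above was not tested.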

How the data were processed

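RNA of undifferentiated synovial mesenchymal stem cells was hybridised to 8 Porcine Snowball arrays, 2 for each of AS-FP, AS-FS, DL-FP and DL-FS. The deposited values are log2 signals: GCOS 1.1.1 is named in the submitters' processing notes, and the authors used Expression Console for robust multichip averaging (RMA). Their methods then drop undetected and little varying probe sets, but the table still held 47845 rows. The tests used 47722 of these, without 123 control probe sets. An array has no read depth, and precision is limited by how many arrays there are.

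A mean for each group was fitted with limma 3.58.1 in R 4.3.3, with a trend in the variance prior (residual degrees of freedom 4, or 3 with the block, prior 4.33), and tested on simulated data. P-values were adjusted within each comparison by Benjamini-Hochberg, with the threshold of the methods, 0.1. Tables and figures used Python 3.11.15, numpy 2.4.6, pandas 2.3.3 and matplotlib 3.10.9. Symbols came from the platform annotation, and gene order from RefSeq (Sscrofa11.1); no position or sequence was used here. Of the 67 probe sets, 22 may match several transcripts, and 21 of the 34 genes had more than 1 probe set; the brightest by mean over all arrays stood for a gene.

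Replicate numbers come from the sample titles. Same-numbered arrays deviated together from their group means in each of the 6 group pairs (r from 0.143 to 0.219 over all probe sets, and from 0.118 to 0.341 over the 67), so the numbers were treated as pairing the arrays and a fit with the number as a block was made. Values on every array are given for genes with a probe set called in any comparison in either fit and for the 5 widest differences by breed, tissue and replicate number; other genes are given by ranges and counts. The genes, the lists and this rule were chosen with earlier results of these data known. Alternatives were an SD filter, a filter on dim probe sets, no trend, an ordinary linear model, a repeated quantile normalization, centring on the array median, and leaving out each array.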

Additional observations from a re-analysis of the deposited data

Results flagged for a closer look

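Among 20 probe sets of the genes described on every array, the 4 arrays of each breed and of each tissue were searched for an array far from the other 3 (Dixon's criterion at 95%). Of 80 such sets 5 were flagged. The criterion flags about 1 in 20 sets of like arrays. Each set here mixed different groups, and each array was in a breed set and a tissue set, so that rate need not hold. IFIT5 SNOWBALL_017481_s_st stood at 8.86 on the first AS-FS array, with the other AS arrays at 8.37 to 8.44. IRF1 SNOWBALL_000653_st stood at 7.08 on the first AS-FS array, with the other AS arrays at 6.58 to 6.61. IFIH1 SNOWBALL_017816_st stood at 6.10 on the first AS-FS array, with the other FS arrays at 6.46 to 6.50, and at 6.02 on the first DL-FP array, with the other DL arrays at 6.46 to 6.55. GBP1 SNOWBALL_006557_s_st stood at 7.08 on the first DL-FP array, with the other DL arrays at 6.31 to 6.38. The flags fell on the first array of AS-FS and of DL-FP.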

How the results depend on the processing

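The count of the 67 probe sets called for AS minus DL, 2, was 14 with the replicate block. It was 4 with dim probe sets left out, where 367 of 37624 were called. With the SD filter it was 3, where 227 of 15281 were called. After quantile normalization was repeated it was also 3, where 311 of 47722 were called. The ordinary linear model called none of the 67 and none of all probe sets. Leaving out an array lost the call of OAS1 in most fits. Within FP the count was 2 with the block against 0 without. Within FS it was 3 with the block, and 1 with dim probe sets left out, where 51 of 37624 were called. For the replicate number, 2 calls became 1 with the SD filter, where 1253 of 15281 were called. They became 4 with dim probe sets left out, where 3144 of 37624 were called. After quantile normalization was repeated they became 7, where 2556 of 47722 were called. Without the trend and with the ordinary linear model none of the 67 and none of all probe sets was called. The cause of these changes was not tested. The medians over the genes kept their sign in every alternative run, as did the differences of the called probe sets, for which alone the alternatives were run. With values raised to the background median, the difference of PARP9 was 0.09 in place of -0.05. Of the 67 probe sets, the block changed no other call than those given beside the results. In genes outside the list it also added calls within FS, for SAMHD1 (adjusted p = 0.042) and TNFSF10 (0.0231), within FP for CD44 (0.0696), and for the tissues within DL for SAMHD1 (0.0913). Genes near background, such as IFIT2, OASL and PARP9, limit what can be read from their differences.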
